A study of Mus musculus with 120 samples.

Results

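Sperm leave the testis and pass through the epididymis, first its head (the caput) and last its tail (the cauda). Fragments of 8 mRNAs of the caput epithelium were followed on sperm in 5 experiments of small RNA sequencing: Gpx5, Lcn5, Lcn8, Lcn9, Adam7, Adam28, Cst8 and Ros1. The 8 were taken by name from the gene rows of each table, 8 of 23818 gene rows, and all 8 were present in every table. The caput epithelium secretes much of the protein that sperm meet on their way, and it sheds vesicles called epididymosomes that carry proteins and RNA and can fuse with sperm. Gpx5 encodes a secreted glutathione peroxidase, Lcn5, Lcn8 and Lcn9 encode lipocalins that carry small lipophilic molecules, and Cst8 encodes a cystatin, a family of protease inhibitors. Adam7 and Adam28 encode membrane proteins of the disintegrin and metalloprotease family, and Ros1 encodes a receptor tyrosine kinase that the mouse initial segment, the first stretch of the caput, needs to differentiate.

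All libraries were cloned from mouse RNA under 40 nt, so the values are reads of mRNA fragments and not of whole mRNAs. The mice were on control diet and were sampled at 8 to 12 weeks of age, and the titles of the wash libraries name the FVB strain. The groups were testicular sperm fused with caput epididymosomes (n = 2) and mock-fused testicular sperm (n = 2). Cauda sperm were cloned after polynucleotide kinase, an enzyme that repairs RNA ends, or without it (n = 3 each), and so were caput sperm (n = 3 each). Whole sperm (n = 6), heads (n = 3) and tails (n = 4) of cauda sperm, under a hypotonic or a detergent wash, were set against detergent-washed whole sperm (n = 2), heads (n = 3) and tails (n = 2) from the testis. A maturation series held 1 library each of primary spermatocytes, early round spermatids, late round spermatids and caput sperm, then testicular sperm (n = 4), cauda sperm (n = 7, of which 3 are titled 9W and 3 titled 12W) and cauda epididymosomes (n = 3). Cauda sperm were also washed with 0.01% SDS and 0.005% Triton, with 0.1% SDS and 0.005% Triton or with 0.1% SDS and 0.5% Triton, or left unwashed (n = 5 each). The labels name no animals, so replicates measure the spread between libraries, which may be technical. The 4 testicular sperm libraries of the maturation series differ in title, with the marks 2X, NaCl, fusion untreated and somatic. They may be different preparations, so their spread may hold more than that of replicates.

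Depth differed widely between experiments. Libraries held 9719304 to 15998722 reads in the fusion experiment, 156347 to 2533461 in the kinase experiment, 5749841 to 56011124 for heads and tails, 4842250 to 22190669 in the maturation series and 3292739 to 13267370 in the wash experiment. A count of 3 reads was worth 0.188 to 0.309 CPM (counts per 1000000 reads of the library) in the fusion libraries and 1.18 to 19.2 CPM in the kinase libraries, so low members were poorly resolved in the kinase libraries. In the maturation series 2 libraries stood apart: testicular sperm replicate 1, whose title carries the mark 2X, and cauda sperm replicate 2. The 8 mRNAs together reached 174 CPM in that testicular library. Comparisons of the maturation series with testicular sperm, cauda sperm or epididymosomes are therefore given with and without these libraries. Each has the most reads of the 8 mRNAs in its group and was chosen after the data were seen. Values of p without them are therefore a description.

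The genes lie in several clusters (mm10, GENCODE vM21). Lcn8 (chr2:25653120-25656217, plus strand) ends 1734 bases before Lcn5 (chr2:25657952-25661977, plus strand), and Lcn9 (chr2:25823153-25825537, plus strand) lies 161175 bases beyond Lcn5. Cst8 lies on the same chromosome (chr2:148798785-148805595, plus strand). Adam7 (chr14:68497336-68533741) and Adam28 (chr14:68606027-68655842) are neighbours on the minus strand, 72285 bases apart. Gpx5 (chr13:21286429-21292731) and Ros1 (chr10:52045721-52195244) are on the minus strand, and 2 processed pseudogenes, Gm20630 and Gm18513, lie within Ros1, so its reads are uncertain if counting was not by spliced transcript.

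The 250 bases upstream of 3 members are shown, since 7 of the 8 varied alike across the groups of libraries, from RefSeq promoters of GRCm38.p6, read 5′ to 3′ on the strand of the gene. Promoters of 6 of the 8 genes were matched. Capitals mark TATAAA, the TATA box, or AGAACA, the androgen receptor half-site, each searched on both strands as TATAAA or TTTATA and as AGAACA or TGTTCT. Gpx5 (chr13:21292687-21292936, minus strand) is shown as the member with the most reads among the 6 with a matched promoter, Lcn5 (chr2:25657702-25657951, plus strand) for its TATA box and Lcn9 (chr2:25822903-25823152, plus strand) for its half-site.
Gpx5: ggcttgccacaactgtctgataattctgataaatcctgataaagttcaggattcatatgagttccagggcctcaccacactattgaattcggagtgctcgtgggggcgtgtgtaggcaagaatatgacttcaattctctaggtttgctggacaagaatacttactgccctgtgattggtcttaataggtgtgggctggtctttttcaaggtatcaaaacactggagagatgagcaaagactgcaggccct
Lcn5: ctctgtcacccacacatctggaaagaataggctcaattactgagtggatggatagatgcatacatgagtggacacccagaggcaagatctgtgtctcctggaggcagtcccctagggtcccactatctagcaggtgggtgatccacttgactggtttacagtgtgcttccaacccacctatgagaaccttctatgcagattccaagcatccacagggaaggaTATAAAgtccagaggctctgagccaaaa
Lcn9: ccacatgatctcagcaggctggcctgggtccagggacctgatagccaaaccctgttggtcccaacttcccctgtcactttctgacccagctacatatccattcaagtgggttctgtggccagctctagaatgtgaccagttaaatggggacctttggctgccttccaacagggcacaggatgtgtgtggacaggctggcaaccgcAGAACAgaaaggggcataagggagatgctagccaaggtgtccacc
A TATA box was found in 1 of the 6 promoters, that of Lcn5, at position -28 from the start, and in 13.0% of 27025 mouse promoters. A half-site was found in 1 of the 6, that of Lcn9, at position -45, and in 16.2% of the 27025. No other match to these letters was found in the windows of the 6 genes.

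In the kinase experiment all of the 8 mRNAs but Adam7 were at or near 0 in sperm from the cauda, and in sperm from the caput most were well above the floor of 3 reads. Gpx5 had 0, 0 and 2.22 CPM in cauda sperm with kinase and 500, 568 and 604 CPM in caput sperm with kinase. It had 0, 0 and 0.395 CPM in cauda sperm without kinase and 173, 368 and 404 CPM in caput sperm without kinase. The cauda and caput libraries did not overlap with either cloning.

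Without kinase, Gpx5 held 1 read over the 3 cauda libraries, against 584 over the 3 caput libraries, a level 2273-fold lower (95% counting interval 406 to 89940). Lcn5 held 2 reads in cauda sperm, against 152 in caput sperm, and was 296-fold lower (80.5 to 2465). Lcn8, Lcn9, Adam28 and Ros1 held no read in the 3 cauda libraries, against 19, 14, 22 and 5 reads in the caput libraries. Set against a floor of 3 reads over the group, Lcn8 was at least 24.7-fold lower in cauda sperm, Lcn9 at least 18.2-fold, Adam28 at least 28.5-fold and Ros1 at least 6.49-fold. Cst8 had no read in either group without kinase and did not pass the filter on low rows.

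Adam7, the membrane disintegrin, was the exception in level. It had 5.76, 7.10 and 7.45 CPM in cauda sperm without kinase and 70.4, 120 and 126 CPM in caput sperm without kinase, so it fell but stayed measurable in every cauda library. Its log2 difference was -3.28 ± 0.38 (SE, adjusted p = 1.55e-07, from quasi-likelihood fits in edgeR, adjusted over all rows of the table by the Benjamini-Hochberg method). Of the 8 members 7 passed the filter and all 7 were called lower in cauda sperm, where 33.6% of the 1489 rows tested were called lower. Those other than Adam7 held at most 3 reads in any cauda group and passed the filter through the caput libraries, so the count is a description. The median log2 difference was -6.02 over the 7 and -0.44 over all rows. Ros1 was not called with DESeq2 (adjusted p = 0.0867), without the filter (0.260) or without caput sperm replicate 3 cloned without kinase (0.0787), and 1 of its 3 caput libraries held no read.

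With kinase the secreted members were again far lower in cauda sperm. Gpx5 was 742-fold lower in cauda sperm (counting interval 252 to 3613), Lcn5 133-fold (43.8 to 659) and Lcn8 792-fold (140 to 31500). Lcn9 was at least 120-fold lower, Adam28 at least 104-fold, Ros1 at least 26.95-fold and Cst8, not tested for its low counts, at least 8.98-fold. Adam7 had 35.5, 45.3 and 46.3 CPM in cauda sperm with kinase and 162, 175 and 179 CPM in caput sperm with kinase. These libraries did not overlap in CPM. Its log2 difference of -0.73 ± 0.34 was not called (adjusted p = 0.0932). That call depended on the scaling: under library totals alone the difference was -2.02 (adjusted p = 4.29e-05), and the median of all rows moved by -1.25. It was also called under RLE size factors (-0.996, adjusted p = 0.0234) and without caput sperm replicate 2 with kinase (-1.03, adjusted p = 0.0467). In all, 6 of the 7 members tested were called lower in cauda sperm with kinase, where 17.6% of rows were. These 6 passed the filter through the caput libraries, so the count is a description.

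**Figure D1:**
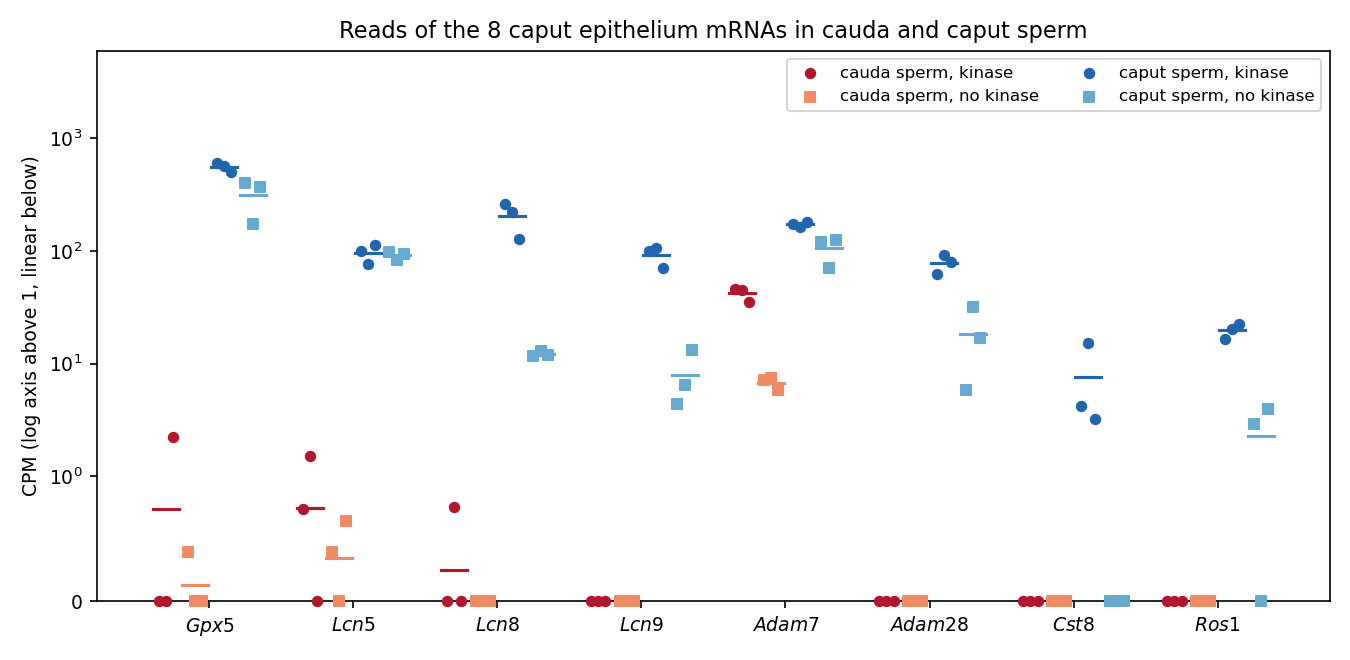
Level of each mRNA in CPM (vertical axis, logarithmic above 1 and linear below) in cauda and caput sperm cloned with and without kinase, 3 libraries each. Points are libraries and bars are means, and Adam7 is the 1 gene above 5 CPM in all 6 cauda libraries.

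In caput sperm kinase treatment went with higher levels of Lcn8, Lcn9, Adam28 and Ros1. Lcn8 had 128, 223 and 262.2 CPM with kinase and 11.7, 11.8 and 12.8 CPM without, a log2 difference of 3.99 ± 0.45 (adjusted p = 8.89e-07). Lcn9 had 70.5, 99.9 and 107 CPM with kinase and 4.39, 6.40 and 13.1 CPM without, a log2 difference of 3.25 ± 0.52 (adjusted p = 3.48e-05). For both lipocalins the treated libraries lay far above the untreated ones.

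Adam28 had 62.4, 80.1 and 91.4 CPM with kinase and 5.85, 17.0 and 32.0 CPM without, and it rose by 2.28 ± 0.51 on the log2 scale (adjusted p = 0.000943). Ros1, the receptor kinase, had 16.6, 20.3 and 22.4 CPM with kinase and 0, 2.93 and 3.93 CPM without, a log2 difference of 2.51 ± 0.76 (adjusted p = 0.0106). Without caput sperm replicate 1 cloned without kinase its adjusted p was 0.0731. Cst8 had 3.20, 4.16 and 15.2 CPM with kinase, against no read without it, and was at least 3.57-fold higher.

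The third lipocalin was not called. Lcn5 had 76.1, 99.9 and 112 CPM with kinase and 83.1, 94.3 and 98.1 CPM without, in overlapping ranges, with a log2 difference of -0.02 ± 0.36 (adjusted p = 0.972) whose sign changed between scalings. Gpx5 differed by 0.71 ± 0.41 (adjusted p = 0.178) and Adam7 by 0.56 ± 0.35 (adjusted p = 0.206), although the libraries of neither overlapped in CPM. Both were called higher under RLE size factors, at 1.18 (adjusted p = 0.0260) and 1.03 (adjusted p = 0.0196). Thus 4 of 7 members tested were called higher with kinase, where 12.8% of rows were. The cutoff of the filter, 9.58 CPM, was reached in all 3 treated caput libraries by Lcn9, Adam28 and Ros1, but in 1, 2 and 0 of the 3 untreated ones. These 3 passed it through the treated libraries, so the count is a description. The median log2 difference was 2.28 over the 7 members and 0.03 over all rows. In the other list of caput epithelium genes 7 of 21 were tested and none was called, with a median of 0.33.

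In levels per kilobase of mean transcript length (GENCODE vM21), the genes in caput sperm had the following order. With kinase, Gpx5 had 333 ± 31.5 CPM per kb and Lcn8 had 314 ± 106 CPM per kb (SD, n = 3), which did not differ beyond their spread. Lcn5 at 142 ± 27.02 and Lcn9 at 110 ± 22.9 CPM per kb followed, also within their spread, then Adam7 at 49.6 ± 2.54 and Adam28 at 26.7 ± 4.99 CPM per kb. Cst8 had 9.81 ± 8.70 and Ros1 had 2.67 ± 0.40 CPM per kb, and these too were within their spread. Without kinase, Gpx5 had 188 ± 74.3 and Lcn5 had 135 ± 11.4 CPM per kb, which did not differ beyond their spread. Adam7 at 30.4 ± 8.77 and Lcn8 at 18.6 ± 0.93 CPM per kb followed. Lcn9 had 9.49 ± 5.43 and Adam28 had 6.25 ± 4.48 CPM per kb, within their spread. Ros1 had 0.309 ± 0.276 CPM per kb and Cst8 had no read. In the single caput sperm library of the maturation series Lcn5 had 787 and Gpx5 had 555 CPM per kb.

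In cauda sperm the response to kinase could be measured for Adam7 alone. It had 35.5 to 46.3 CPM with kinase and 5.76 to 7.45 CPM without, a log2 difference of 3.10 ± 0.38 (adjusted p = 3.71e-07), where 32.7% of rows were called higher. Lcn9, Adam28, Cst8 and Ros1 had no read in either group, and Gpx5, Lcn5 and Lcn8 had at most 3 reads in either group. The response of Adam7 was larger in cauda than in caput sperm by 2.55 ± 0.51 on the log2 scale (adjusted p = 0.00220), where 7.25% of rows were called higher. Housekeeping genes differed in the same direction, with 3 of 6 called higher and a median of 2.34, against a median of 0.46 over all rows, and their part in the result was not tested. The difference of Adam7 was not called under library totals (1.95, adjusted p = 0.0502), over gene rows alone (1.49, adjusted p = 0.136) or without the filter on low rows (2.31, adjusted p = 0.184).

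Markers of other cells moved between the same groups. The 8 genes of the distal epididymis list summed to 63.4 to 135 CPM in cauda sperm and 15.7 to 76.8 CPM in caput sperm without kinase. The 6 housekeeping genes summed to 25.8 to 27.9 CPM in cauda sperm and 139 to 168 CPM in caput sperm, and the 6 general epithelium genes to 2.56 to 6.99 and 22.3 to 32.2 CPM. The late germ cell list summed to 61.5 to 76.4 CPM in cauda sperm and 18.3 to 57.1 CPM in caput sperm. Both of its genes tested were called higher in cauda sperm, where 263 of 1489 rows were called higher. Smcp differed by 3.15 ± 0.54 (adjusted p = 3.19e-05) and Odf1 by 2.96 ± 0.52 (adjusted p = 4.40e-05) on the log2 scale. Fewer cells or vesicles of a type and less RNA in each cannot be told apart in such libraries. The part of these markers in the results was not tested.

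Of the other caput epithelium list 20 of 21 genes were in the table and 7 were tested without kinase. Of these, 5 were called lower in cauda sperm, where 33.6% of all rows were, with a median of -4.95. Genes at 0 in cauda sperm can pass the filter through the caput libraries, so this count is a description. Defb20, a defensin, averaged 0 CPM in cauda and 18.5 ± 5.03 CPM in caput sperm without kinase, and Defb42, another, averaged 0 and 22.6 ± 6.94 CPM. Rnase10 averaged 0 CPM in cauda and 7.19 ± 0.74 CPM in caput sperm, and Rnase9 averaged 0.132 ± 0.228 and 10.7 ± 7.25 CPM. Both encode secreted proteins of the ribonuclease A family. Spink8, of a family of serine protease inhibitors, was not called (log2 difference 0.26 ± 0.43, adjusted p = 0.667), with 11.8 ± 1.96 CPM in cauda and 14.8 ± 2.12 CPM in caput sperm. Like Adam7, it stayed measurable in cauda sperm. Wfdc10 was not called either (log2 difference -0.84 ± 0.92, adjusted p = 0.489).

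In the fusion experiment testicular sperm were mixed with caput epididymosomes. Each of the 8 mRNAs was higher in both fused libraries than in either mock library. With 2 libraries a group this is a description, as the share of all rows that separate so was not counted. Gpx5 had 130 and 188 CPM in fused sperm, against 2.33 and 9.26 CPM in mock-fused sperm, a log2 difference of 4.76 ± 0.65 (adjusted p = 0.00159). Adam7 had 60.6 and 74.0 CPM in fused sperm, against 1.94 and 5.45 CPM in mock-fused sperm, a log2 difference of 4.14 ± 0.59 (adjusted p = 0.00196).

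Among the lipocalins, Lcn5 had 34.5 and 46.7 CPM in fused sperm, against 0.0778 and 3.09 CPM in mock-fused sperm. Its log2 difference of 4.71 ± 1.17 was as large as that of Gpx5 but was not called (adjusted p = 0.0692). With the title suffix shared by a fused and a mock library as a replicate block it was called. With 2 libraries a group that fit leaves almost no replicates to estimate the spread. Its p rests on spread shared with other rows and does not settle the call. Lcn8 had 2.75 and 3.06 CPM in fused sperm, against 0 and 0.155 CPM in mock-fused sperm, and was 32.5-fold higher (78 reads against 2, counting interval 8.69 to 273, adjusted p = 0.00810). Lcn9 had the same 2.75 and 3.06 CPM in fused sperm, against 0.206 and 0.311 CPM, a log2 difference of 3.31 ± 0.69 (adjusted p = 0.0141).

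Adam28 had 5.07 and 6.83 CPM in fused sperm and no read in either mock library, and was at least 43.6-fold higher (adjusted p = 0.000947). Cst8 had 0.989 and 1.13 CPM in fused sperm and none in mock-fused sperm, and was at least 8.05-fold higher (adjusted p = 0.0357). Ros1 had 2.44 and 3.15 CPM in fused sperm, against 0 and 0.206 CPM, and was 30.8-fold higher (74 reads against 2, counting interval 8.23 to 259, adjusted p = 0.0104). For none of the 8 did fused and mock libraries overlap. With 2 libraries a group such separation can arise by chance. Its share over all rows was not counted, so it is a description.

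In all, 7 of the 8 were called higher, where 6.84% of 5844 rows were called higher (400 higher and 2 lower). Only Gpx5 and Adam7 reached the cutoff of the filter, 0.834 CPM, in both mock libraries. The other 6 passed it through the fused libraries, so the count is a description. The median log2 difference was 4.74 over the 8 and 0.12 over all rows. DESeq2 called 5, without Lcn9 (adjusted p = 0.0677), Cst8 (no adjusted p given) and Lcn5. Leaving out any 1 of the 4 libraries left the count at 7, with Lcn5 called (adjusted p at most 0.00556) and Cst8 not called in 3 of these fits (adjusted p 0.0536 to 0.571) and not tested in the other. With only 2 libraries a group, a lone library in such fits is assumed to vary like the others.

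**Figure D2:**
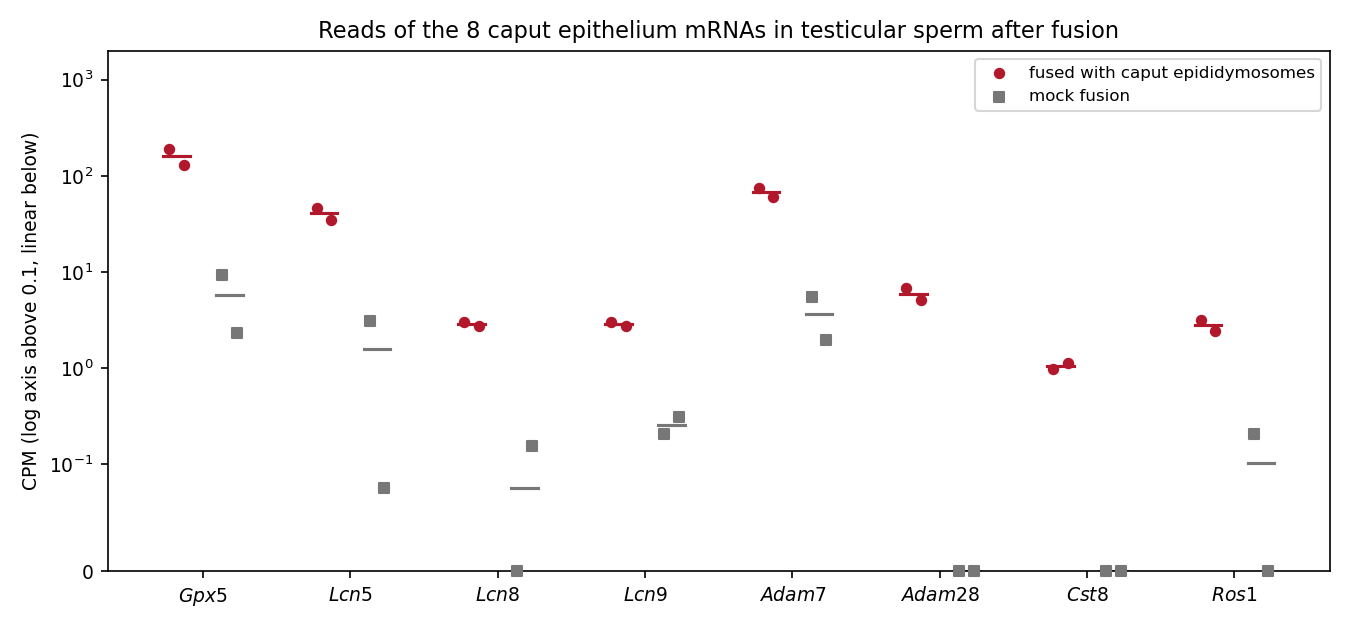
Level of each mRNA in CPM (vertical axis, logarithmic above 0.1 and linear below) in testicular sperm fused with caput epididymosomes and in mock-fused testicular sperm, 2 libraries each. Points are libraries and bars are means, and for each of the 8 genes both fused libraries lie above both mock libraries. With 2 libraries each such separation is a description.

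Other lists moved in the fused libraries too. Of the other caput epithelium genes 12 were tested and 11 were called higher, where 6.84% of all rows were. Their median log2 difference was 6.08. Genes near 0 in mock-fused sperm can pass the filter through the fused libraries, so this count too is a description. Defb42 averaged 15.2 ± 0.99 CPM in fused and 1.21 ± 1.17 CPM in mock-fused sperm, and Spink8 averaged 11.3 ± 2.45 and 0.890 ± 0.488 CPM. Defb20 averaged 10.6 ± 4.01 CPM in fused and 0.271 ± 0.053 CPM in mock-fused sperm, and Rnase9 averaged 9.01 ± 0.10 and 0.0778 ± 0.110 CPM. Among general markers, 3 of 6 housekeeping genes, both smooth muscle genes tested, 1 of 4 general epithelium genes and 1 of 3 distal epididymis genes were called higher.

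None of 8 late germ cell genes, 5 blood and immune genes or 2 Sertoli and Leydig genes tested was called. The late germ cell list summed to 202 to 280 CPM in fused and 164 to 243 CPM in mock-fused sperm. The blood and immune list summed to 66.6 to 94.5 CPM in fused and 45.9 to 240 CPM in mock-fused sperm, and the smooth muscle list to 4.01 to 11.2 and 0.393 to 0.721 CPM. The housekeeping list summed to 87.6 to 131 CPM in fused and 10.7 to 31.1 CPM in mock-fused sperm. The part of these genes in the result was not tested.

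The shares of the 8 mRNAs among their own reads are given as a description, with no test. Of all reads of the 8 mRNAs, Gpx5 took 54.4% and 57.8% in the 2 fused libraries, and 58.1% and 62.4% in replicates 3 and 1 of caput sperm without kinase. Shares are given for libraries with at least 100 reads of the 8, which leaves out caput sperm replicate 2 without kinase and mock-fused replicate 1. In mock-fused replicate 2, with 177 reads of the 8, Gpx5 took 50.8%, Adam7 29.9% and Lcn5 16.9%. Lcn5 took 14.3% and 14.4% in fused sperm, and 14.9% and 15.2% in those caput libraries. Adam7 took 22.7% and 25.3% in fused sperm, and 18.6% and 19.8% in them. In caput sperm with kinase, Gpx5 took 44.98% to 45.6% and Lcn8 11.7% to 19.8%. The caput sperm library of the maturation series, a single library, had 48.1% for Gpx5, 27.6% for Lcn5 and 19.2% for Adam7.

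Along the maturation series the mRNAs were near 0 in the germ cells of the testis and highest in caput sperm. Primary spermatocytes had 0.0451 CPM for the 8 mRNAs together, early round spermatids 0.805 CPM and late round spermatids 0.189 CPM. Caput sperm had 930 CPM of Gpx5, 534 of Lcn5, 370 of Adam7, 31.6 of Lcn8, 27.9 of Adam28, 17.6 of Ros1, 15.2 of Lcn9 and 5.29 of Cst8. With 1 library of each, these levels have no replicate check.

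Testicular sperm, cauda sperm and cauda epididymosomes lay in between. Gpx5 had 0.603, 2.93 and 18.03 CPM as the lowest, median and highest of 7 cauda sperm libraries, and 0.712, 2.23, 2.54 and 89.4 CPM in testicular sperm. Its log2 difference of -1.36 ± 1.01 was not called (adjusted p = 0.240). Without the 2 libraries that stood apart it was 1.02 (adjusted p = 0.121), so its direction rested on them. Lcn5 had 0.450, 1.498 and 2.21 CPM as the lowest, median and highest in cauda sperm and 0.129, 1.15, 1.61 and 21.7 CPM in testicular sperm, and it too turned, at -1.02 ± 0.71 (adjusted p = 0.205) with them and 0.80 (adjusted p = 0.181) without them.

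Adam7 had 5.14, 8.94 and 35.2 CPM as the lowest, median and highest in cauda sperm, and 0.324, 1.11, 1.39 and 48.9 CPM in testicular sperm. It did not overlap between the groups except through testicular sperm replicate 1. With all libraries its log2 difference was 1.25 ± 0.91 (adjusted p = 0.229), and without the 2 libraries it was 4.02 (adjusted p = 4.74e-07). Among the 6 cauda and 2 testicular libraries whose titles end alike it was 4.31 (adjusted p = 2.48e-05). None of the 3 members tested was called with all libraries, where 71.7% of 7669 rows were, and the other 5 did not pass the filter.

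Cauda epididymosomes, the vesicles of the cauda fluid, carried Adam7 at 40.2, 40.6 and 41.1 CPM, above all 7 cauda sperm libraries. The log2 difference from cauda sperm was 0.96 ± 0.90 (adjusted p = 0.447), and 1.06 (adjusted p = 0.0309) without the 2 libraries. Against testicular sperm it was 2.21 ± 1.05 (adjusted p = 0.0753), and 5.08 (adjusted p = 4.15e-08) without them. Gpx5 had 1.38, 2.34 and 6.87 CPM and Lcn5 had 0.813, 1.14 and 1.56 CPM in the vesicles, within the range of cauda sperm. The titles of the epididymosome libraries all end alike, and no title of a cauda sperm library ends so. Differences between vesicles and cauda sperm therefore cannot be told apart from differences that go with the title suffix. Among the testicular libraries only replicate 3 shares the suffix of the vesicles. The part of the suffix in these comparisons was not tested.

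No member was called against cauda sperm, where 35.6% of rows were, or against testicular sperm, where 71.2% were. Gpx5 differed from cauda sperm by -0.83 ± 1.19 (adjusted p = 0.629), and by -0.40 without the 2 libraries that stood apart. Lcn5 differed by -0.86 ± 0.84 (adjusted p = 0.460), and by -0.86 without them. Against testicular sperm Gpx5 differed by -2.19 ± 1.34 (adjusted p = 0.160), but by 0.62 without the 2 libraries and by 0.58 without testicular sperm replicate 1 alone, so its direction rested on that library. Lcn5 differed by -1.88 ± 0.91 (adjusted p = 0.0732), and by -0.06 without the 2 libraries. Between cauda sperm titled 12W and 9W (3 libraries each) none of the 3 members tested was called, nor was any of 3744 rows (0%), with 14 rows higher and 18 lower at an unadjusted p under 0.05. DESeq2 called none either, and no member was called with any 1 of the 6 libraries left out.

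**Figure D3:**
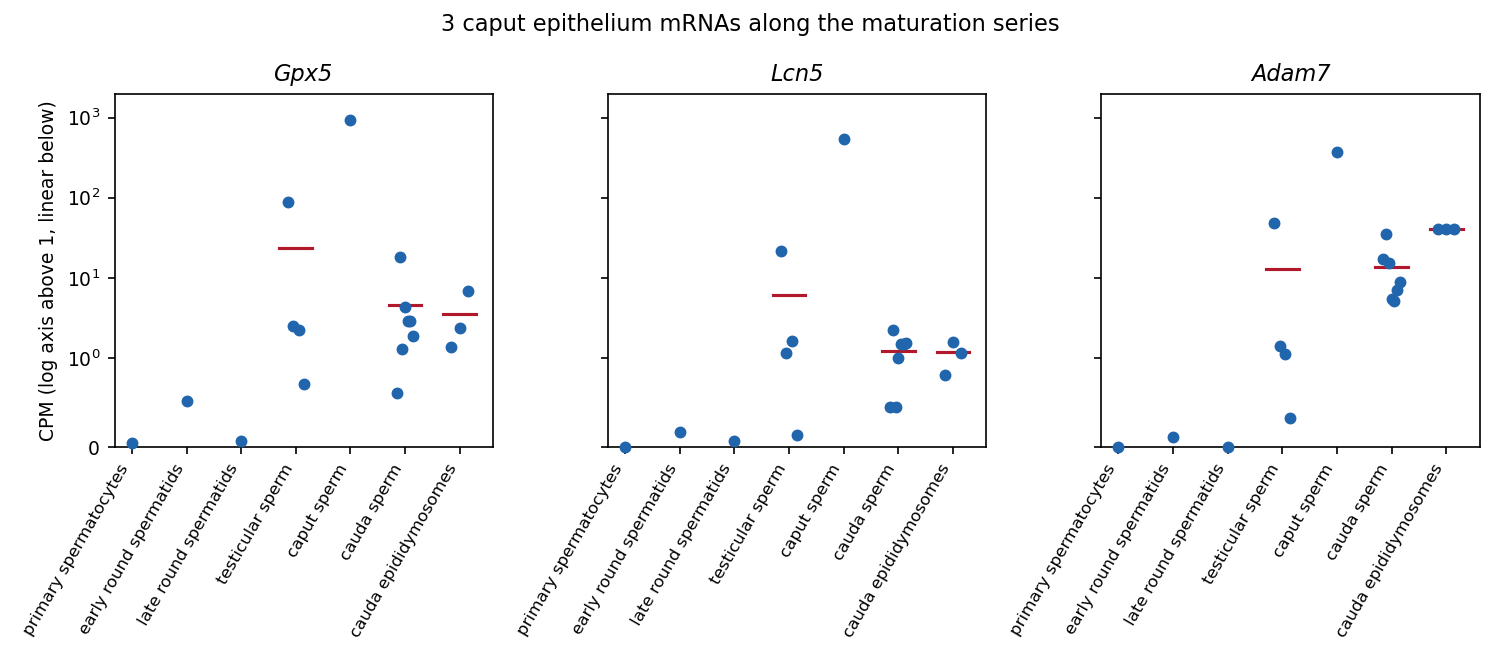
Levels of Gpx5, Lcn5 and Adam7 in CPM (vertical axis, logarithmic above 1 and linear below) along the maturation series, with 1 library for each germ cell stage and for caput sperm, 4 of testicular sperm, 7 of cauda sperm and 3 of cauda epididymosomes. Points are libraries and bars are means; the single caput sperm library is the highest for all 3 genes, and testicular sperm replicate 1 lies above the other 3 testicular libraries.

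Markers of other cells were also high in the 2 libraries that stood apart. Gpx5 took 51.3% of the reads of the 8 mRNAs in testicular sperm replicate 1, Adam7 took 28.1% and Lcn5 took 12.5%. In that library the other caput epithelium list summed to 33.2 CPM, against 1.49 to 2.95 CPM in the other 3, and the blood and immune list to 168 CPM, against 2.87 to 33.3 CPM. In cauda sperm replicate 2 the distal epididymis list summed to 621 CPM, against 50.7 to 230 CPM in the other 6. The part of these markers in the levels of the 8 mRNAs was not tested.

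After separation into heads and tails, reads of Adam7 were found in the libraries of both. The purity of the fractions was not tested. In hypotonic cauda heads the smooth muscle genes Acta2 and Myh11 averaged 4.72 and 4.46 CPM. Whole cauda sperm had 7.27, 8.08, 25.4 and 40.5 CPM of Adam7 after the hypotonic wash and 20.5 and 35.2 CPM after the detergent wash, and whole testicular sperm had 0.270 and 0.286 CPM. The log2 difference was 6.95 ± 1.09 (adjusted p = 3.07e-05), where 18.2% of 9706 rows were called higher. Cauda heads had 5.48, 6.66 and 29.7 CPM, against 0.170, 0.289 and 0.830 CPM in testicular heads, a log2 difference of 5.17 ± 0.89 (adjusted p = 4.36e-05) where 24.1% of rows were called higher.

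Cauda tails had 5.08, 32.7, 41.3 and 46.3 CPM of Adam7, against 0.175 and 0.303 CPM in testicular tails, a log2 difference of 7.27 ± 1.11 (adjusted p = 6.26e-05) where 20.7% of rows were called higher. Cauda and testicular libraries did not overlap in whole sperm, heads or tails. Heads and tails of cauda sperm overlapped, with a log2 difference of -1.23 ± 0.67 for heads over tails (adjusted p = 0.152), where 36.5% of rows were called in either direction. Without the 1 detergent-washed head library it was -2.03 (adjusted p = 0.0408). The head to tail difference of Adam7 was not called different between cauda and testicular sperm (-2.10 ± 1.22, adjusted p = 0.253), where 17.5% of rows were. Testicular heads and tails differed by 0.87 ± 1.01 (adjusted p = 1), where 0% of rows were called by edgeR, with 102 higher and 237 lower at an unadjusted p under 0.05, and DESeq2 called 28 higher and 14 lower. Hypotonic and detergent washes of whole cauda sperm differed by -0.06 ± 0.74 (adjusted p = 0.998), where 0.0155% of rows were called.

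The other 7 mRNAs did not pass the filter in these libraries. Together they summed to at most 1.03 CPM in any cauda library and at most 0.650 CPM in any testicular library. In the other caput epithelium list 4 genes were tested, Spink8, Wfdc10, Lcn12 and Rnase9. All 4 were called higher in whole cauda than in whole testicular sperm, a call made for 18.2% of all rows. Genes near 0 in testicular sperm can pass the filter through the cauda libraries, so this count is a description. Spink8 averaged 16.6 CPM in hypotonic and 28.9 CPM in detergent-washed whole cauda sperm, against 0.353 CPM in whole testicular sperm. In the same comparison all 6 housekeeping genes, all 4 smooth muscle genes and 5 of 5 distal epididymis genes tested were called higher, and the part of these genes in the level of Adam7 was not tested.

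**Figure D4:**
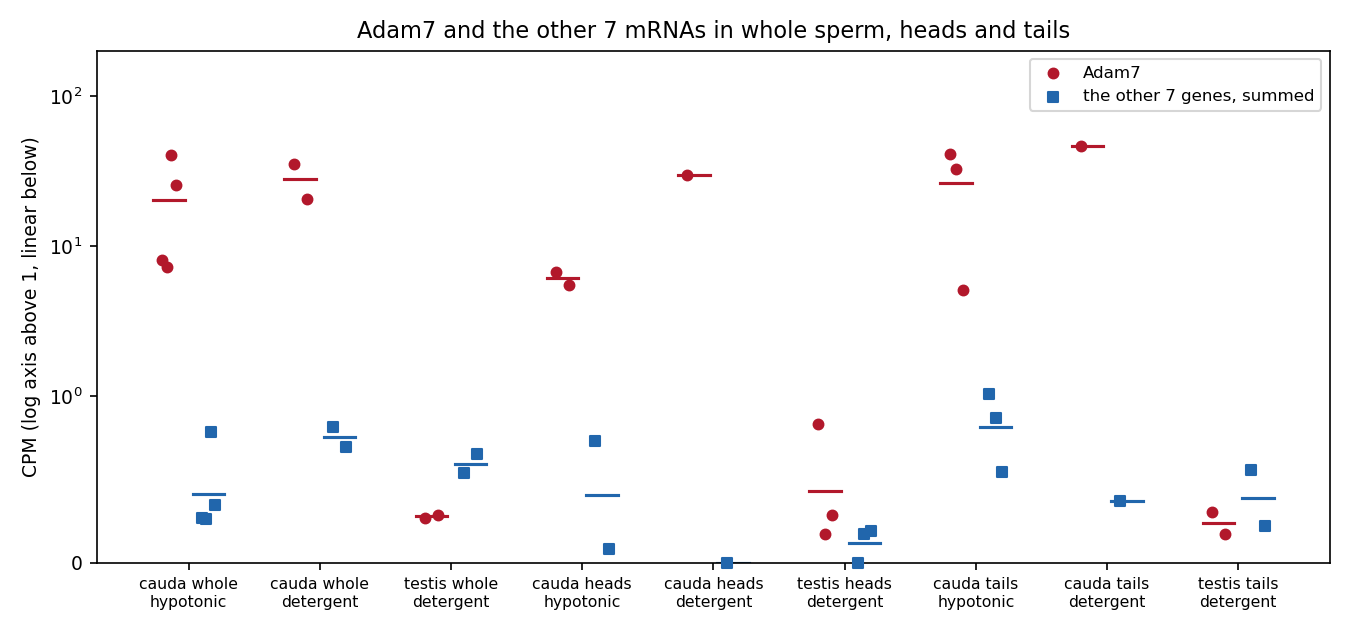
Level of Adam7 and the summed level of the other 7 mRNAs in CPM (vertical axis, logarithmic above 1 and linear below) in whole sperm, heads and tails from the cauda epididymis and the testis. Points are libraries and bars are means; Adam7 lies above 5 CPM in every cauda library and below 1 CPM in every testicular library, and the other 7 stay near or below 1 CPM.

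Adam7 was measured in every cauda sperm library after each detergent wash. It had 115, 164, 198, 272 and 299 CPM after the low wash (0.01% SDS and 0.005% Triton), against 179, 218, 234, 304 and 317 CPM in unwashed sperm. After the mid wash (0.1% SDS and 0.005% Triton) it had 192, 218, 226, 422 and 506 CPM, and after the high wash (0.1% SDS and 0.5% Triton) 142, 208, 222, 408 and 505 CPM. All 4 ranges overlapped. Set by set, the CPM of Adam7 was lower than in unwashed sperm in 5 of 5 sets after the low wash, whereas it was higher in 4 of 5 after the mid wash and in 3 of 5 after the high wash. The high-wash library of set 4 is titled as mid wash but labelled with the high-wash detergents, and was used as labelled. The log2 difference from unwashed sperm was -0.25 ± 0.27 after the low wash (adjusted p = 0.911), -0.16 ± 0.27 after the mid wash (adjusted p = 0.826) and -0.22 ± 0.27 after the high wash (adjusted p = 0.816). With the set as a replicate block it was -0.27 (adjusted p = 0.369), -0.19 (adjusted p = 0.423) and -0.25 (adjusted p = 0.321) after the low, mid and high wash. These do not show that the washes leave it unaltered, and under library totals alone the mid and high wash differences were 0.32 and 0.25, with the median of all rows moved by 0.44 and 0.43.

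Of all rows tested 0.0713% were called in either direction after the low wash, 2.78% after the mid wash and 1.56% after the high wash. The other 7 mRNAs did not pass the filter and summed to at most 2.26 CPM in any of the 20 libraries. In each of them Adam7 made up at least 98.9% of the reads of the 8. Staying after a wash was not particular to Adam7. The smooth muscle gene Acta2 averaged 40.2 CPM in unwashed sperm and 48.5, 74.3 and 71.0 CPM after the low, mid and high wash. After each wash none of 4 smooth muscle genes tested was called, and 1 of 6 blood and immune genes was called lower. The part of these genes in the level of Adam7 was not tested.

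**Figure D5:**
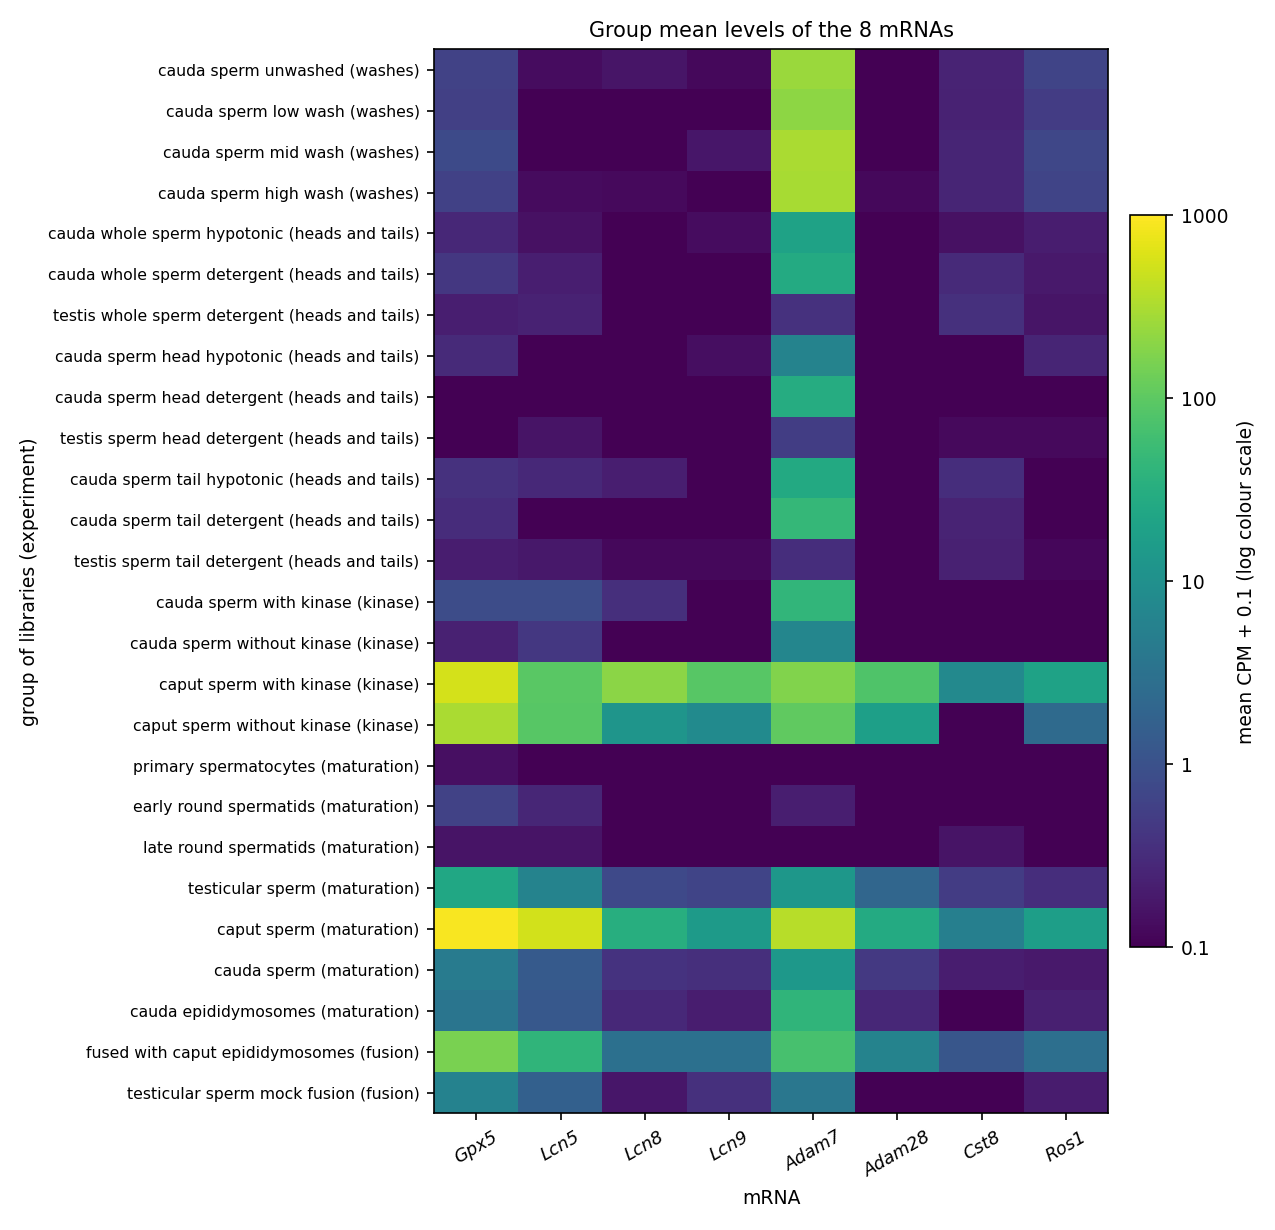
Mean level of the 8 mRNAs in each group of libraries, as CPM plus 0.1 on a logarithmic colour scale, with groups in rows and genes in columns. Except for Adam7, the columns are brighter in caput sperm (not Cst8 without kinase) and in fused testicular sperm than in other groups. Cst8, Ros1, Lcn8 and Lcn9 stay dim in fused sperm, as does Ros1 in caput sperm without kinase. The Adam7 column is brighter than the others in cauda sperm.

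Across the 26 groups of the 5 experiments 7 members followed one pattern and Adam7 did so less closely. The measure was Pearson's r of the group means of log2(CPM + 1), centred within each experiment, with the mean of the other members. It was 0.97 for Adam28 and Gpx5, 0.96 for Ros1, 0.95 for Lcn5 and Lcn8, 0.94 for Lcn9, 0.87 for Cst8 and 0.66 for Adam7. Groups share libraries' depth and experiment, so r is a description. Of 3508 genes with a group mean of at least 10 CPM, the 10 other genes most like the mean of the members were Lap3 (0.99), C4bp (0.99), Man1a, Mfge8, Gm1110, Gpr64, Spag11b, Cldn2, 9230104L09Rik and Defb20 (0.98). Defb20 is also in the other caput epithelium list.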

How the data were processed

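Small RNA libraries of sperm, germ cells and epididymosomes were analysed from the tables of expected counts that the authors deposited, with mm10 as the build per the submitters' processing notes. The aligner and the counting method are not given in the sources used here. Fractions occur in the gene rows, so expected counts were rounded for the fits. CPM is the count per 1000000 of the library total, without the 28S, 18S and 5.8S rows, which the 45S row holds. The 27 gene rows named by a date were left out, as were 40 columns of gene counts that match no sample used here. Both mock-fusion libraries stand in 2 tables with identical values and were counted once.

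Each experiment was fitted with edgeR 4.0.16 (quasi-likelihood, robust, TMM, filterByExpr) in R 4.3.3, and p was adjusted over all rows tested, with calls at 0.05. DESeq2 1.42.0 was an alternative, beside RLE size factors, library totals alone, gene rows alone, no filter, a replicate block and each library left out. The fits were tested on simulated data. A fold against a group at 0 is a bound from 3 counts over the group. Folds resting on 1 to 3 counts carry 95% exact intervals, which cover counting error only. The members and lists were chosen with earlier results of these data known. Every member is described; of other lists the genes called are counted and those with the highest mean CPM are named; the 10 genes most like the members are named by correlation. Same-set wash libraries deviated together (r 0.193 to 0.885 over 30 pairs), so the sets pair them.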

Additional observations from a re-analysis of the deposited data

Results flagged for a closer look

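Levels of 1 gene in 1 group of 4 to 10 libraries were examined in 11 instances over the wash, heads and tails and maturation experiments. In 5 of the 11 the highest library lay far from the others, and all 5 came from 2 libraries of the maturation series. Genes of 1 library are not independent, so the 5 are a description. Testicular sperm replicate 1 had 89.4 CPM of Gpx5, 21.7 CPM of Lcn5 and 48.9 CPM of Adam7, each the highest of 4. Cauda sperm replicate 2 had 18.03 CPM of Gpx5 and 35.2 CPM of Adam7, each the highest of 7. The same testicular library was high in the blood and immune list, and the same cauda library in the distal epididymis list, and the part of these cells was not tested.

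The response of Adam7 to kinase was larger in cauda than in caput sperm by 2.55 on the log2 scale (adjusted p = 0.00220, edgeR's quasi-likelihood test), a call that ended under 3 of the other settings.

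The single caput sperm library of the maturation series, which enters no test, held 1931 CPM of the 8 mRNAs together, against 0.0451 to 0.805 CPM in the single germ cell libraries.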

How the results depend on the processing

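Of the counts of members called, 247 stayed within 1.5 times the main count under an alternative and 22 did not; of the single-member values, 558 kept their direction and call, 31 gained and 14 lost a call, and 15 reversed. The number of members called in cauda heads against tails was 1 with no filter on low rows and 0 to 1 with a library left out. For the kinase response in cauda against caput sperm it was 0 with library totals, gene rows alone or no filter. For cauda against testicular sperm in the maturation series it was 1 with library totals, 2 with gene rows alone, 1 with no filter, 3 among libraries whose titles end alike, 1 without the 2 libraries that stood apart (chosen after seeing the data) and 0 to 1 with a library left out. For epididymosomes against cauda sperm it was 1 with no filter and 1 without the 2 libraries. Against testicular sperm it was 2 with no filter, 1 with DESeq2 and 1 without the 2 libraries. With a library left out it was 0 to 1 there. In the main fits 36.5% of all rows were called in cauda heads against tails and 71.7% in cauda against testicular sperm. For epididymosomes 35.6% were called against cauda sperm and 71.2% against testicular sperm. Shares under the other settings are not given here, so these counts of members are a description.

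Adam7 reversed to 0.32 after the mid wash and 0.25 after the high wash under library totals. Lcn5 in caput sperm, kinase against none, was 0.45 with RLE size factors, 0.061 with library totals, 0.38 with DESeq2 and -0.13 to 0.24 with a library left out. In cauda against testicular sperm Gpx5 was 2.03 among libraries whose titles end alike, 1.02 without the 2 libraries and -2.35 to 1.43 with a library left out, and Lcn5 was 1.75, 0.80 and -1.85 to 0.77. Gpx5 in epididymosomes against testicular sperm was 0.62 without the 2 libraries and -3.60 to 0.58 with a library left out. The causes were not tested.

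With the wash set as a replicate block 81 rows were called higher and 212 lower after the low wash, 919 and 833 after the mid wash and 500 and 613 after the high wash, against 0 and 9, 88 and 263, and 14 and 183 without it; 0 members were called in either. In the fusion experiment the block, on a shared title suffix that pairs libraries by number only, called 8 members, with 704 rows higher and 233 lower against 400 and 2. With 2 libraries a group it leaves almost no replicates to estimate the spread, so these calls rest on spread shared between rows. Depth limits the kinase libraries most, where members at 0 may lie below the floor of 3 counts.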

Other observations

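Spink8, which is outside the 8, also stayed measurable in cauda sperm. It averaged 42.8 ± 9.35 CPM in cauda sperm with kinase and 5.52 ± 5.13 CPM in caput sperm with kinase, a log2 difference of 4.25 ± 0.56 (adjusted p = 8.79e-07, edgeR's quasi-likelihood test). In the wash experiment it averaged 251 ± 88.1 CPM after the low wash, 384 ± 141 CPM after the mid wash, 356 ± 175 CPM after the high wash and 288 ± 80.7 CPM in unwashed sperm (SD, n = 5 each). Spink8 was singled out after its values were seen, and it was not alone in the other caput epithelium list. By the same test Wfdc10 was higher in cauda sperm with kinase, by 2.365 ± 0.80 on the log2 scale (adjusted p = 0.021). Rnase9 was not called with kinase (-1.75 ± 0.91, adjusted p = 0.129). Defb20, Defb42, Lcn10 and Rnase10 were called lower.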
